A study of Mus musculus with 10 samples.

Results

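The nuclear genes for the respiratory chain and the ATP synthase were followed in ribosome-bound RNA of striatal cholinergic neurons and in total striatal RNA. Members were taken by symbol alone, as the structural genes of complexes I to V: Nduf with a, b, c, s or v and a number, Sdha to Sdhd, Uqcr, Cox4 to Cox8 and Atp5, without pseudogene names. The rule found 84 genes among 32531 symbols, with 37 in complex I, 4 in complex II, 8 in complex III, 18 in complex IV and 17 in complex V. A few genes that the prefixes bring in are not plain subunits of their complex: Atp5s and Atp5sl are related factors, Cox7a2l is a supercomplex factor, and Ndufa4 is now counted as a subunit of complex IV.

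All animals were adult mice of the Chat-TRAP line DW167, which carry the ribosomal protein Rpl10a fused to EGFP under Chat regulatory sequences, so that the tagged ribosomes are those of cells using that driver. Tagged polysomes were immunopurified from whole striatum after cocaine self-administration, as yoked controls, or after saline self-administration, with 3 libraries in each group. A last library was made from RNA of saline self-administering mice without immunopurification, and this input has no replicate. Whether each library holds 1 animal or several is not given in the labels, nor is what the yoked mice received, so p-values measure only the spread between these libraries, which may be technical.

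The respiratory chain passes electrons from NADH, through complex I, and from succinate, through complex II, to complex III and on to complex IV, which reduces oxygen. Complexes I, III and IV pump protons across the inner mitochondrial membrane, and the ATP synthase uses their return to make ATP. Apart from complex II, each complex joins nuclear and mitochondrially encoded subunits, and several complex IV and ATP synthase subunits come from small families of isoforms, of which some are known from muscle, testis or lung. Striatal cholinergic interneurons are tonically active cells. None of the 13 mitochondrially encoded subunits was matched in the gene tables, and they are not analysed here.

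The deposited counts were scaled by the gene total of each library to CPM, so that all libraries share 1 fixed total, and a ratio to input is the CPM of a saline immunopurified library over that of the input, on the log2 scale. Gene totals, to 6 digits, ran from 24526800 to 75220900 in the immunopurified libraries, against 40912200 in the input. All 10 cholinergic markers, among them Chat, lay above the input in all 3 saline libraries with a median log2 ratio of 5.53. Marker lists of spiny projection neurons, cortical neurons, astrocytes, oligodendrocytes, microglia, endothelium and pericytes with smooth muscle had medians from -4.39 to -2.97, and none of their genes was at 0 in all 3 saline libraries. Single markers went against this: 1 of 4 D1 and 1 of 4 D2 spiny neuron markers were above the input in all 3, Isl1, which is also on the cholinergic list, and Drd2. Markers of parvalbumin and other interneurons had a median of -3.67, with 1 of 6 above the input in all 3, and those of blood -2.91. Markers of oligodendrocyte precursors had a median of -1.08, with 1 of 2 above the input in all 3, and those of ependyma and choroid plexus -0.48. The ependyma and choroid plexus markers summed to 7.81, 1.78 and 89.1 CPM in saline libraries, against 10.9 CPM in the input, so saline 3 stood out. The libraries numbered 2 stood apart: their median Pearson correlation with the other immunopurified libraries was 0.943 for cocaine 2, 0.959 for yoked 2 and 0.952 for saline 2, and at most 0.979 for any library. Of the 84 members, 27 overlap the span of another gene and 9 have a named pseudogene, and their counts are less certain. Reads set aside as ambiguous between genes were 0.976% to 1.84% in immunopurified libraries and 4.49% in the input. Whether this uneven loss moved the ratios of overlapping genes was not tested. Reads placed at several loci made up 36.3% to 57.1% of the reads of immunopurified libraries and 35.4% of the input reads, and are in no gene count. Saline libraries were run in lane 3, cocaine and yoked libraries in lane 4 and the input in lane 5, so lane cannot be told apart from group against saline or from immunopurification against the input.

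Transcripts of all 5 complexes were higher in the immunopurified RNA than in the input. Summed over the 84 genes, they made up 16195 to 16920 CPM in cocaine, 15733 to 17716 CPM in yoked and 16780.5 to 17196 CPM in saline libraries, against 7193 CPM in the input. Complex I summed to 4381 to 5214 CPM over the 9 immunopurified libraries, against 1803 CPM in the input. For complex II the sums were 907 to 1116 CPM against 611 CPM, for complex III 1382 to 1606 CPM against 532 CPM, for complex IV 3614 to 4395 CPM against 1353 CPM, and for complex V 5071 to 6339 CPM against 2895 CPM in the input. No immunopurified library overlapped the input in any of these sums. In such bulk samples the number of cells of a type and the RNA per cell cannot be told apart, and neither can the cell type from the binding to ribosomes, since the input is total RNA.

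Of the 84 genes, 81 had at least 20 counts in the input or on average in the saline libraries and were measured against the input. The other 3 were Cox8b, Cox8c and Atp5l. The median log2 ratio of the 81 genes was 1.39, with an SD of 0.070 between the 3 library medians, against -0.20 over the 15888 genes measured. At least 2-fold more CPM than the input in all 3 saline libraries was found for 48 of the 81, where the background over all measured genes was 12.2%. Simply above the input in all 3 were 74 members, against a background of 35.8%, and 3, Ndufa4l2, Cox4i2 and Atp5g2, were below it in all 3, against 44.9%. These 3 and Cox6b2 reached the minimum of 20 counts only through the input, and Cox7a1 only through the saline libraries, so the direction of these 5 follows in part from the minimum and nothing is read from it. At least 4-fold higher in all 3 libraries were 5 members, Ndufb6, Uqcrq, Ndufa11, Atp5g1 and Ndufb7, against 3.56% of all genes. Among genes with at least 10 CPM in the input, 44 of 70 members (62.9%) and 974 of 8749 genes in all (11.1%) passed the 2-fold rule. No p-value can be given, because the input stands alone. The ratio was of the same size in the other groups: the member median was 1.28 to 1.51 over the 9 immunopurified libraries, with 74 to 78 members above the input in each.

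**Figure D1:**
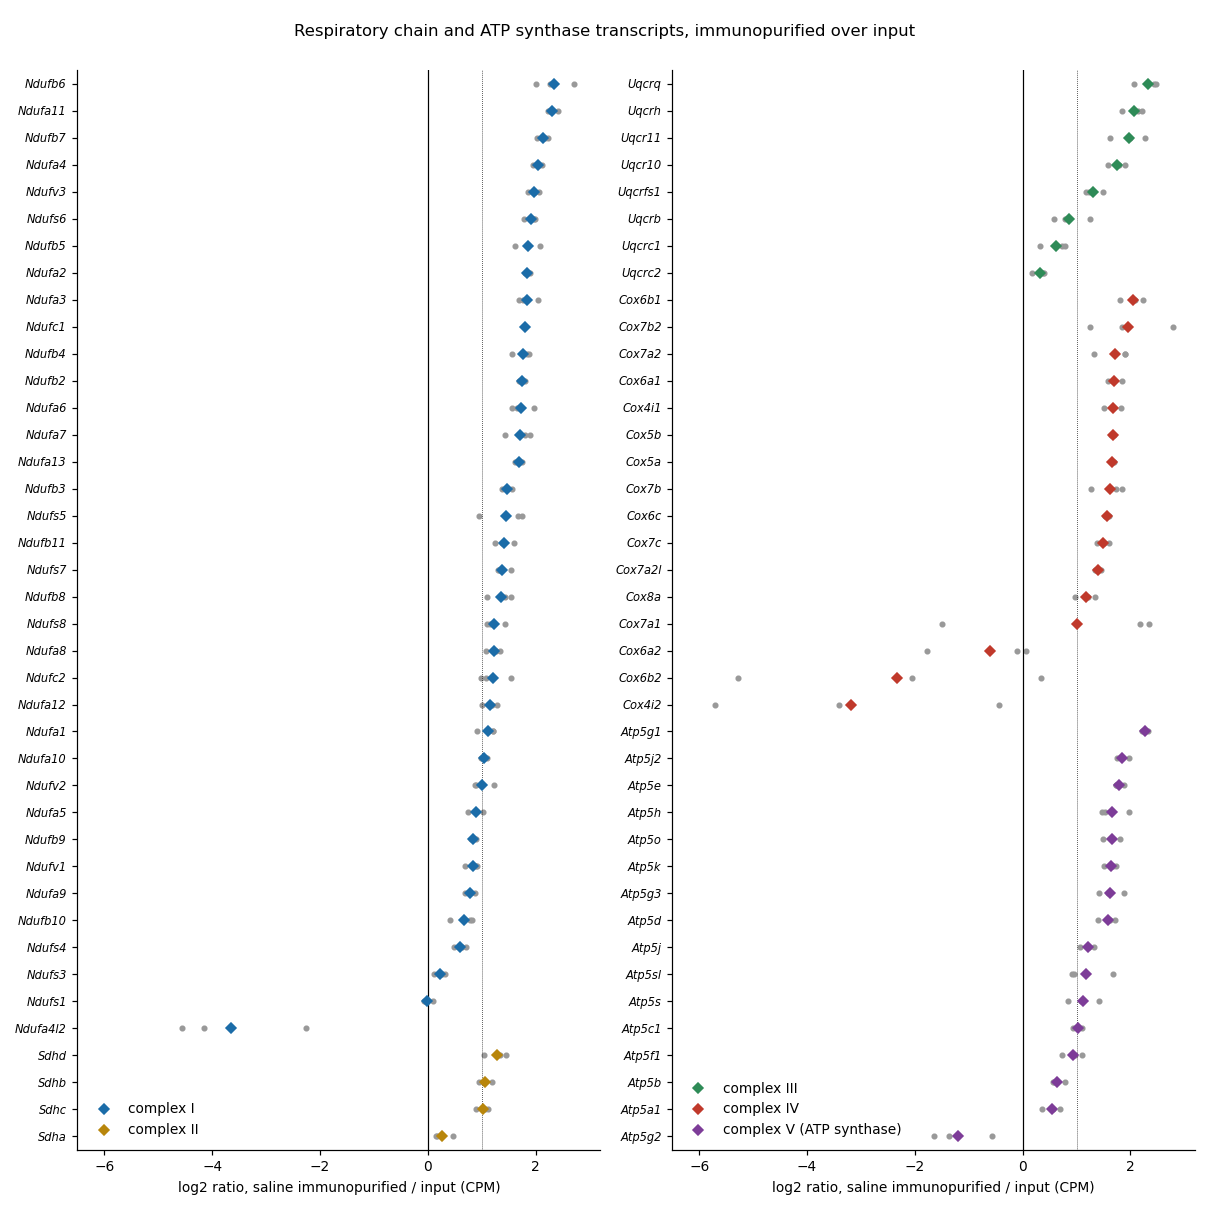
Log2 ratio of saline immunopurified CPM to input CPM for 80 of the 81 measured genes, with a small point for each of the 3 saline libraries and a diamond for their mean, coloured by complex. Most genes lie right of 0, from 0.23 upwards for the general subunits other than Ndufs1, while Ndufa4l2, Cox4i2, Cox6b2, Atp5g2 and Cox6a2 have means left of it.

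By complex, the median log2 ratio was 1.38 for complex I (37 genes measured), 1.04 for complex II (4), 1.53 for complex III (8), 1.59 for complex IV (16) and 1.39 for the ATP synthase (16). Within complexes I and III and the ATP synthase, the median ratio differed by the place of the subunit in the enzyme. Single genes of these roles overlapped: Atp5e of the ATP synthase head and stalk had 1.78 and Atp5f1 of the peripheral stalk 0.94. In complex II only Sdha stood lower, and the catalytic Sdhb (1.06) and the anchor Sdhc (1.02) were nearly level. These roles were assigned after the values were seen, so they are given as description without a test.

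The conserved core subunits of complex I hold the flavin and the iron-sulfur clusters or lie close to them. For 6 of their nuclear genes, Ndufs1 and Ndufs7 among them, the median log2 ratio was 0.91, against 1.58 for the 28 accessory subunits, which surround the core. Ndufs1, the large iron-sulfur subunit of the NADH-oxidising arm, had 67.6, 74.3 and 66.2 CPM in the saline immunopurified libraries and 69.9 CPM in the input. Its log2 ratio was -0.01 ± 0.09 (SD, n = 3), and the immunopurified libraries lay on either side of the input. Ndufs7, the core subunit next to the quinone site, had the highest ratio of these core genes, 1.38 ± 0.14 (SD, n = 3).

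The highest ratio in complex I was that of Ndufb6, an accessory subunit of the membrane arm, with 174, 237 and 145 CPM in saline libraries and 36.0 CPM in the input. This is a log2 ratio of 2.33 ± 0.36 (SD, n = 3), or 5.04-fold. Ndufa11, an accessory subunit of the membrane arm as well, had 204, 186 and 180 CPM against 38.4 CPM in the input, a log2 ratio of 2.30 ± 0.09 (SD, n = 3). All saline libraries were above the input for both genes, and saline 2 was the highest for Ndufb6. All 28 accessory subunits were above the input in all 3 libraries, and 19 of them passed the 2-fold rule, compared with 5 and 2 of the 6 core subunits. Lowest among the accessory subunits was Ndufs4 with 0.60, named here after its value was seen.

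Succinate dehydrogenase, complex II, is also an enzyme of the citric acid cycle and the only complex coded wholly in the nucleus. Sdha, the flavoprotein that oxidises succinate, had 373, 461 and 377 CPM in saline libraries and 333 CPM in the input, a log2 ratio of 0.27 ± 0.17 (SD, n = 3). Sdhb, the iron-sulfur subunit, had a log2 ratio of 1.06 ± 0.12, and Sdhc, one of the membrane anchors, 1.02 ± 0.12 (SD, n = 3 each). The anchor Sdhd had 237, 180 and 220 CPM against 86.8 CPM in the input, a log2 ratio of 1.28 ± 0.21 (SD, n = 3). All 4 genes were above the input in every saline library, and Sdhd alone passed the 2-fold rule.

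In complex III, the core proteins Uqcrc1 and Uqcrc2, which face the matrix and take no part in electron transfer, had the lowest ratios. Uqcrc2 had 177, 179 and 153 CPM in saline libraries and 136 CPM in the input, a log2 ratio of 0.32 ± 0.12 (SD, n = 3). Uqcrc1 had 74.8, 104 and 100 CPM against 60.01 CPM in the input, a log2 ratio of 0.62 ± 0.26 (SD, n = 3). With the Rieske iron-sulfur protein Uqcrfs1 (1.30 ± 0.17), these genes had a median of 0.62, against 1.97 for the 5 small subunits. The roles overlapped here as well, since the small subunit Uqcrb had 0.87, below Uqcrfs1.

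Uqcrq, a small subunit that binds near cytochrome b, had 345, 266 and 354 CPM in saline libraries and 63.8 CPM in the input, a log2 ratio of 2.32 ± 0.23 (SD, n = 3). Uqcrh, the hinge protein at cytochrome c1, had 389, 303 and 371 CPM against 84.1 CPM, a log2 ratio of 2.07 ± 0.19 (SD, n = 3). Both were above the input in every library, and saline 2 had the lowest saline value for each. Uqcrh has named pseudogenes and overlaps another gene, so its counts are less certain.

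In the ATP synthase, the 5 genes for the catalytic head and its stalk had a median log2 ratio of 1.02, against 1.65 for the 6 measured genes of the peripheral stalk and membrane part. Atp5a1, the alpha subunit of the head, had 622, 784 and 711 CPM in saline libraries and 484 CPM in the input, a log2 ratio of 0.54 ± 0.17 (SD, n = 3). Atp5b, the catalytic beta subunit, had a log2 ratio of 0.64 ± 0.12 and the stalk subunit Atp5d 1.58 ± 0.16 (SD, n = 3 each). Atp5j2, a small membrane subunit, had 141, 147 and 163 CPM against 41.7 CPM, a log2 ratio of 1.85 ± 0.11 (SD, n = 3). All 5 genes of the head and stalk were above the input in all 3 libraries and 2 of them passed the 2-fold rule, compared with 6 and 5 of the 6 peripheral and membrane genes.

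For complexes I and III and the ATP synthase, the same order of roles was seen in all 9 immunopurified libraries, each set against the same input. The median of the complex I core minus that of the accessory subunits was -1.02 to -0.43, with a median over libraries of -0.68. For complex III, core proteins and Rieske protein minus small subunits gave -1.67 to -0.83. Head and stalk minus peripheral and membrane subunits of the ATP synthase gave -0.84 to -0.22. For complex II the catalytic subunits Sdha and Sdhb had a saline median of 0.66 and the anchors 1.15, but the order turned in cocaine 2, where the medians were 0.94 and 0.59. These values share the input library and are no independent repeats. The roles were assigned after the values were seen, so the order describes these libraries and tests nothing.

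**Figure D2:**
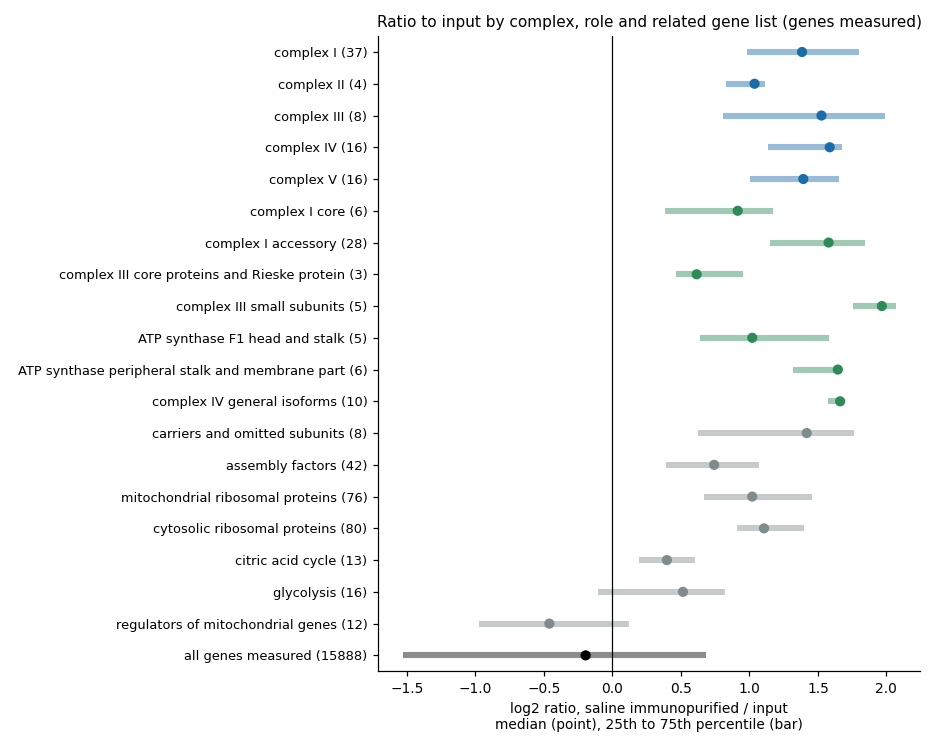
Median log2 ratio of saline immunopurified CPM to input CPM (point) with the 25th to 75th percentile over genes (bar), for complexes, subunit roles and related gene lists, with the number of genes measured in brackets. The complexes lie between 1.04 and 1.59, assembly factors at 0.74, citric acid cycle enzymes at 0.40, and all genes at -0.20.

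The c ring of the ATP synthase, which turns as protons pass, is built from 1 mature protein coded by Atp5g1, Atp5g2 and Atp5g3. Atp5g1 had 38.8, 37.3 and 40.5 CPM in saline libraries and 8.04 CPM in the input, a log2 ratio of 2.27 ± 0.06 (SD, n = 3). Atp5g3 had 542, 389 and 441 CPM against 146 CPM in the input, a log2 ratio of 1.63 ± 0.24 (SD, n = 3). Atp5g2, which reached the minimum only through the input, had 5, 13 and 10 counts in saline libraries and 25 counts in the input. Its pooled ratio, the CPM over the summed saline libraries divided by the input CPM, was 0.462, with a 95% counting interval of 0.260 to 0.827. All 3 libraries were below the input, but because of the minimum no direction is read from this. So few counts for Atp5g2, on chr15:102662868-102671047 (GRCm38.p6), come without the reads that fit several loci, so its level is uncertain.

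In complex IV, some subunits have general isoforms and others known from particular tissues. The 10 general isoforms measured had a median log2 ratio of 1.66, all were above the input in all 3 libraries, and 9 passed the 2-fold rule. Of the 7 tissue isoforms, 5 were measured, and 3 of these reached the minimum on 1 side only, Cox4i2 and Cox6b2 through the input and Cox7a1 through the saline libraries, so they are described one by one. Counts of the tissue isoforms were low, and counting intervals do not cover the spread between libraries.

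Cox4i1, the general form of subunit 4, had 622, 558 and 694 CPM in saline libraries and 196 CPM in the input, a log2 ratio of 1.67 ± 0.16 (SD, n = 3). Cox4i2, its counterpart known from lung and from oxygen-sensing cells, lies on chr2:152753916-152765039 (GRCm38.p6) and had 0, 29 and 1 counts against 51 in the input. Its pooled ratio was 0.243, with a 95% counting interval of 0.149 to 0.388. Nearly all of its saline counts came from saline 2, and the interval does not cover that spread. Cox4i2 reached the minimum only through the input, so no direction is read from the ratio. In the other groups Cox4i2 had 19, 0 and 12 counts in cocaine libraries and 0, 0 and 7 in yoked libraries.

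Markers of pericytes and smooth muscle had a median log2 ratio of -4.10, with 5 of 6 below the input in all 3 saline libraries. Their summed level was 13.1 to 14.8 CPM in cocaine, 13.4 to 30.2 CPM in yoked and 13.4 to 18.9 CPM in saline libraries, against 29.8 CPM in the input. Ndufa4l2, a relative of Ndufa4 known from hypoxia and from mural cells, had 0, 1 and 1 counts in saline libraries and 23 in the input. Its pooled ratio was 0.0359, with a 95% counting interval of 0.00410 to 0.145. By contrast, Ndufa4 itself had 507, 530 and 468 CPM against 121 CPM, a log2 ratio of 2.05 ± 0.09 (SD, n = 3). Ndufa4l2 had 2, 1 and 1 counts in cocaine libraries and 4, 30 and 6 in yoked libraries, where yoked 2 stood out. The part of mural cells in these values was not tested.

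Cox6a1, the general form of subunit 6a, had 670, 719 and 803 CPM in saline libraries and 225 CPM in the input, a log2 ratio of 1.70 ± 0.13 (SD, n = 3). Cox6a2, the form of heart and skeletal muscle, on chr7:128205435-128206366 (GRCm38.p6), had 1.17, 4.17 and 3.68 CPM against 3.98 CPM in the input. These values overlap the input, and the log2 ratio was -0.60 ± 1.01 (SD, n = 3). Cox6b1, a subunit on the outer side of the enzyme, had 416, 342 and 459 CPM against 97.6 CPM, a log2 ratio of 2.05 ± 0.22 (SD, n = 3), the highest of complex IV. Its testis form Cox6b2 had 30, 7 and 1 counts in saline libraries and 38 in the input, with saline 1 above the input in CPM and the others below.

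Cox7a2, the general form of subunit 7a, had 368, 247 and 365 CPM in saline libraries and 98.4 CPM in the input, a log2 ratio of 1.71 ± 0.33 (SD, n = 3). Cox7a2l, the supercomplex factor, had a log2 ratio of 1.39 ± 0.06 (SD, n = 3). Cox7a1, the heart and muscle form, had 35, 0 and 51 counts against 11 in the input, so that 2 saline libraries were above it and saline 2 held none. With so few counts, and libraries on either side of the input, no direction can be given.

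Cox7b had a log2 ratio of 1.62 ± 0.30 (SD, n = 3). Cox7b2, a form known from testis, on chr5:71442823-71548205 (GRCm38.p6), had 2.97, 5.73 and 1.97 CPM in saline libraries and 0.831 CPM in the input. These rest on 76, 180 and 83 counts against 34, and the pooled ratio was 4.11 with a 95% counting interval of 2.89 to 6.04. It also lay above the input in every other immunopurified library, with 3.95, 4.29 and 1.09 CPM in cocaine and 1.96, 1.55 and 1.53 CPM in yoked libraries. Cox8a, the general form of subunit 8, had 755, 636 and 823 CPM against 325 CPM in the input, a log2 ratio of 1.17 ± 0.19 (SD, n = 3), the lowest of the general isoforms. Cox8b, the muscle form, had 0, 0 and 6 counts in cocaine, 1, 0 and 0 in yoked and 0, 0 and 0 in saline libraries, against 10 in the input, and it was too low to be measured. Cox8c, the testis form, had no count in any of the 10 libraries.

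**Figure D3:**
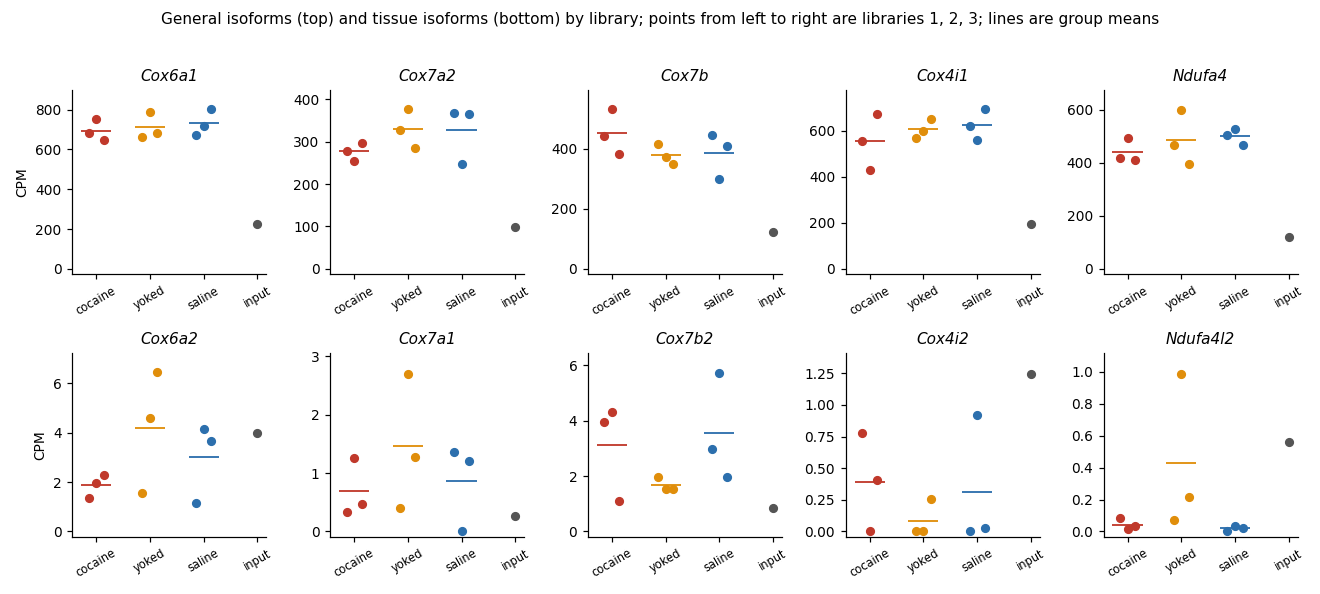
CPM of general isoforms (top) and tissue isoforms (bottom) in each cocaine, yoked and saline immunopurified library and in the input, with a point per library, numbers 1 to 3 from left to right, and a line for the group mean. General isoforms sit well above the input in all 9 libraries, while tissue isoforms lie at a few CPM or below and scatter from library to library.

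Promoters of these genes are known for motifs of NRF1 and of the ETS-family factor GABP, which couple nuclear and mitochondrial gene expression. RefSeq promoter windows of 250 bases upstream of the start (GRCm38.p6) were found for 69 members, with 75 windows in all. The NRF1 core GCATGCG, searched on both strands, was in 9 windows (12%), against 3.73% of 21263 windows of protein-coding genes and 3.02% of 32851 windows of any gene. The ETS motif CCGGAAG, searched on both strands, was in 12 windows (16.0%), against 8.98% and 6.91%. TATAAA was in 7 windows (9.33%), against 11.6% of protein-coding ones, and CCAAT in 32 (42.7%), against 35.4%, each searched on both strands. None of these motifs contains another, but the NRF1 core overlaps itself on the opposite strand. The windows with the NRF1 core belong to Ndufa6, Ndufa8, Ndufa11, Sdhb, Cox6a1, Atp5g2, Atp5j, Atp5k and Atp5l. Of these, Ndufa11 had the highest log2 ratio to input, 2.30. Atp5g2 had -1.19, from which no direction is read, as it reached the minimum only through the input. These are matches of letters in a short window, which say nothing of binding. The NRF1 core was chosen after a longer palindrome had been searched, so its share is given as description only.

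To show the motif in its setting, the windows of Ndufa11 (chr17:56717512-56717761, plus strand), Cox6a1 (chr5:115348959-115349208, minus strand) and Atp5k (chr5:108434400-108434649, minus strand) are printed 5′ to 3′ in the direction of the gene. The window of the tissue isoform Cox7b2 (chr5:71548206-71548455, minus strand) is added as an example of the many windows without the core. Capitals mark the NRF1 core, read on both strands as overlapping letters, and, in Cox6a1 near the end, the ETS motif on the opposite strand.
Ndufa11: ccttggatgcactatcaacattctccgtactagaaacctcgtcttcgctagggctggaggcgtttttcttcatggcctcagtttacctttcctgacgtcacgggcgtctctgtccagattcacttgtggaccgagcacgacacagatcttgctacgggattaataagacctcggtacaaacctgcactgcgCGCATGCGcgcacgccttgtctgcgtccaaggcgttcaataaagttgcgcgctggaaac
Cox6a1: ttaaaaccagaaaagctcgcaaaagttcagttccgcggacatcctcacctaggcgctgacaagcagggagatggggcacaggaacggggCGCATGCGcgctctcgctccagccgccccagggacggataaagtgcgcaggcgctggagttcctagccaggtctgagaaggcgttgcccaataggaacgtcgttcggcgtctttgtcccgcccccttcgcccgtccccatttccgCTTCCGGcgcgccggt
Atp5k: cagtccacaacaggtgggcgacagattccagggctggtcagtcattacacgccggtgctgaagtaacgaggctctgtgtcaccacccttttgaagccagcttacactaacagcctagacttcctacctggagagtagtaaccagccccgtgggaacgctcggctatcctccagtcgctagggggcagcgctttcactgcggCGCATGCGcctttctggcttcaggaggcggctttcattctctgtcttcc
Cox7b2: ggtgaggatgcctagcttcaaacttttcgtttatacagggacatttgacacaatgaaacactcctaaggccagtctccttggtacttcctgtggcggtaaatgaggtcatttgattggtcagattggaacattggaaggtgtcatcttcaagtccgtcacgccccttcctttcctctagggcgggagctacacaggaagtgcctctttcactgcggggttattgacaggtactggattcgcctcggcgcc

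Beyond the subunits, 8 genes for electron carriers and for subunits that the naming rule leaves out had a median log2 ratio of 1.42, and all were above the input in the 3 saline libraries. Among them were Atpif1, the inhibitor of the ATP synthase, 4.01-fold higher than in the input, and Usmg5, a small ATP synthase subunit, 3.69-fold higher, while Etfdh, which feeds electrons from fatty acid oxidation into the chain, was 1.46-fold higher. Assembly factors of the complexes (42 measured) had a median of 0.74, and 32 were above the input in all 3 libraries. Coa4, for complex IV, had 2.20 and Ndufaf7, for complex I, -0.24.

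Enzymes of the citric acid cycle (13 genes) had a median of 0.40, from -0.42 for Suclg2 to 0.88 for Idh3b, and none passed the 2-fold rule. For glycolysis (16 genes) the median was 0.52, with Aldoc, an aldolase of astrocytes, at -1.69 and Pgk1 at 1.12. Regulators of mitochondrial biogenesis (12 genes) had a median of -0.46, and 8 were below the input in all 3 libraries. Ppargc1a, the coactivator of respiratory genes, had a mean of 74.8 CPM in saline libraries and 201.6 CPM in the input, a log2 ratio of -1.46. Its relative Ppargc1b had -1.51, while Tfb2m, a mitochondrial transcription factor, had 0.31. Ribosomal proteins of mitochondria (76 genes) and of the cytosol (80 genes) had medians of 1.02 and 1.11, so the respiratory chain was not alone in lying above the input.

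Between the treatment groups no member passed the test. In each of the 3 comparisons between groups, 0 of the 79 members tested were called at an adjusted p under 0.05 by the quasi-likelihood test of edgeR over 14989 genes, where the background was 0% in each comparison. DESeq2 called none of the members either. Unadjusted p-values under 0.05 were found for 4 members in cocaine against saline, where the background was 5.28%, and for none in the other comparisons, where it was 2.61% (cocaine against yoked) and 2.18% (yoked against saline). The median width of the 95% interval to either side of a member's log2 fold change was 0.36 for cocaine against saline, so smaller differences could mostly not be resolved. These intervals are not adjusted for the number of genes, and larger differences did not pass either. Ndufc2, for example, had a log2 fold change of -0.58 (edgeR adjusted p 0.850). Markers of other cells varied between libraries as well. The 5 general markers of spiny neurons summed to 472 to 1135 CPM in cocaine, 762 to 1014 CPM in yoked and 508 to 1289 CPM in saline libraries. The lowest of these sums was in cocaine 2, and the input had 5869 CPM. In cocaine libraries the 4 D2 spiny neuron markers summed to 1244 to 2591 CPM, here with the highest sum in cocaine 2. The D2 sums were 1071 to 1300 CPM in yoked and 1109 to 1242 CPM in saline libraries, against 1337 CPM in the input. Of these 4 markers, 3 were below the input in all 3 saline libraries and Drd2 was above it. The D2 sums thus mix both directions and are not read as a level of spiny neurons. The part of these markers in the fold changes was not tested. Members not tested for low counts were Atp5g2, Cox6b2, Cox8b, Cox8c and Ndufa4l2.

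Cocaine against saline gave log2 fold changes above 0 for 30 members and below 0 for 49, with a median of -0.09, against 0.00 over all genes, of which 49.4% were below 0. The complex medians were -0.10 for complex I, -0.11 for complex II, -0.06 for complex III, -0.15 for complex IV and -0.06 for the ATP synthase. The cocaine libraries lay wholly below the saline libraries for 14 members and wholly above for 3, where the backgrounds were 5.4% and 4.88%. The members below were a larger share than the background, and those above, Atp5d, Ndufa10 and Ndufs7, were not. Among the 14 below were Ndufc2, Ndufs1, Ndufb6 and Uqcrfs1.

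The smallest p was that of Ndufc2, an accessory subunit of the complex I membrane arm, on chr7:97400003-97407800 (GRCm38.p6). It had 126, 90.5 and 133 CPM in cocaine libraries, against 149, 219 and 158 CPM in saline libraries. All cocaine values were below all saline values, and the log2 fold change was -0.58 with a standard error of 0.19 (edgeR p 0.00759, adjusted p 0.850). Cocaine 2 was the lowest and saline 2 the highest of these values, and without the libraries numbered 2 the log2 fold change was -0.26.

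Ndufs1 had 50.8, 46.4 and 60.5 CPM in cocaine libraries, against 67.6, 74.3 and 66.2 CPM in saline libraries, with no overlap. Its log2 fold change was -0.39 ± 0.16 (standard error; edgeR adjusted p 0.850), and -0.28 without the libraries numbered 2. Ndufb6 had 121, 138 and 134 CPM in cocaine libraries, against 174, 237 and 145 CPM in saline libraries, a log2 fold change of -0.48 ± 0.24 (standard error; edgeR adjusted p 0.850). The groups did not overlap, and the lowest saline value was close to the highest cocaine value. For Sdhd, cocaine libraries had 173, 147 and 181 CPM, against 237, 180 and 220 CPM in saline libraries, and these overlapped by a little in saline 2.

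In the other direction, Atp5d had 479, 473 and 473 CPM in cocaine libraries, against 381, 327 and 406 CPM in saline libraries, a log2 fold change of 0.37 ± 0.17 (standard error; edgeR adjusted p 0.850). The cocaine libraries were tightly grouped and all above saline. Ndufa10, an accessory subunit of complex I, had 212, 315 and 204 CPM in cocaine libraries, against 180, 194 and 187 CPM in saline libraries. Its log2 fold change of 0.41 ± 0.19 (standard error; edgeR adjusted p 0.850) was 0.17 without the libraries numbered 2, since cocaine 2 stood far above the others. Ndufs7 and Ndufb10, a membrane arm subunit, had 0.27 and 0.26, and without those libraries the values were 0.13 for Ndufs7 and -0.01 for Ndufb10.

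Cocaine against yoked gave 38 members above 0 and 41 below, with a median of -0.01, where 49.8% of all genes were below 0. Groups did not overlap for 1 member above, Ndufs5, where the background was 3.42%, and for 5 below, Ndufa2, Ndufc2, Ndufs6, Sdhd and Uqcr11, where it was 3.37%. Ndufc2 had 126, 90.5 and 133 CPM in cocaine libraries, against 138, 176 and 134 CPM in yoked libraries, a log2 fold change of -0.33 ± 0.19 (standard error; edgeR adjusted p 0.9997). Here cocaine 3 and yoked 3 were nearly level, and without the libraries numbered 2 the log2 fold change was -0.10. Ndufs1 had -0.32 and Sdhd -0.31, while Ndufa10 had 0.39, Ndufs5 0.42, Atp5s 0.32 and Atp5b 0.27. Without the libraries numbered 2 these were -0.17 for Ndufs1, -0.14 for Sdhd, 0.18 for Ndufa10, 0.12 for Ndufs5, 0.31 for Atp5s and 0.18 for Atp5b. Cox6a2 had 1.35, 1.98 and 2.31 CPM in cocaine libraries, against 1.56, 4.58 and 6.44 CPM in yoked libraries, a log2 fold change of -1.11 ± 0.62 (standard error; edgeR adjusted p 0.9997) with overlapping groups.

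Yoked against saline gave 18 members above 0 and 61 below, with a median of -0.05, against -0.01 over all genes, of which 52.1% were below 0. Without saline replicate 3 the split was 35 above and 44 below, with a median of -0.02. The groups did not overlap for 4 members below, Atp5l, Cox5b, Cox7b2 and Ndufb2, where the background was 2.74%, and for none above, where it was 4.3%. Cox7b2 had 1.96, 1.55 and 1.53 CPM in yoked libraries, against 2.97, 5.73 and 1.97 CPM in saline libraries. The log2 fold change was -1.08 ± 0.62 (standard error; edgeR adjusted p 0.999), with yoked 1 and saline 3 nearly equal, and -0.47 without the libraries numbered 2. Uqcrfs1 had -0.21, Ndufc2 -0.25 and Atp5j, a peripheral stalk subunit, -0.19. Highest were Atp5d with 0.13, Cox6a2 with 0.45, Ndufv1, a core subunit of complex I that binds the flavin, with 0.12, and Cox7a1 with 0.70, all with overlapping groups. Cox7a1 had -0.63 without the libraries numbered 2, and without yoked replicate 3 Atp5d had -0.00342 and Cox6a2 -0.03, so these directions rest on single libraries. The comparisons share libraries, so their directions are not independent of each other.

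**Figure D4:**
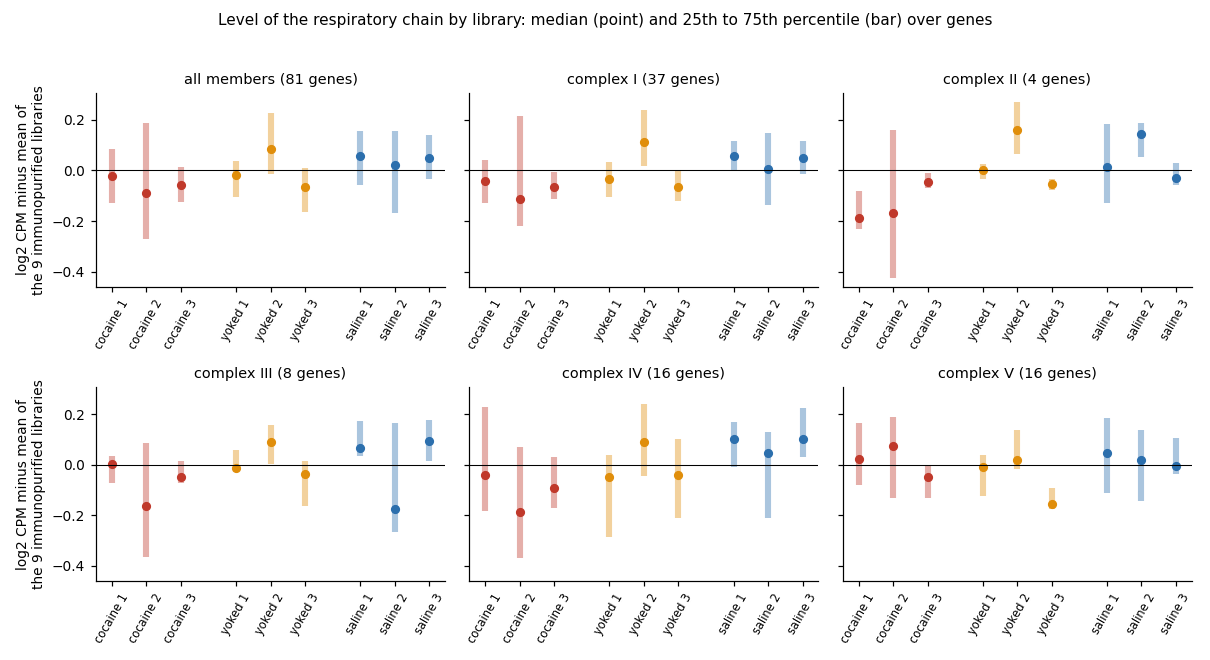
Median (point) and 25th to 75th percentile (bar) over genes of the deviation of each gene's log2 CPM from its average across the 9 immunopurified libraries, for all measured members and by complex, in each library. For all members the library medians run from -0.09 to 0.09, and the bars are wide against the differences between groups.

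The libraries numbered 2 held many of the extreme values. Of the 79 members tested, cocaine 2 had the lowest of the 9 immunopurified values for 28 and the highest for 18, yoked 2 the highest for 18, and saline 2 the lowest for 14 and the highest for 13. Leaving out the libraries numbered 2 in all 3 groups gave 16 members above 0 and 63 below in cocaine against saline, with a median of -0.10, while 49.4% of all genes were below 0. Of the 79 members, 45 were below 0 and 12 above 0 both with and without these libraries, and 22 differed in direction. Unadjusted p-values under 0.05 were then found for 7 members, Sdhd, Cox7a2, Cox4i2, Ndufa1, Ndufb6, Cox6c and Ndufa2, where the background was 3.42%. No adjusted p passed. Sdhd with -0.38 and Ndufb6 with -0.33 were lower in cocaine, but Cox4i2 was higher. Its log2 fold change of 5.03 rests on the few counts given for it above.

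In cocaine against yoked the counts without those libraries were 33 above 0 and 46 below, with a median of -0.02, where 50.1% of all genes were below 0. Yoked against saline gave 13 above 0 and 66 below, with a median of -0.10, where 49.2% of all genes were below 0. With and without those libraries, 56 members were below 0 and 8 above 0 in yoked against saline, and 15 differed in direction. In cocaine against yoked 31 stayed below 0 and 23 above 0, and 25 differed in direction. In these other comparisons no member had an unadjusted p under 0.05 without those libraries, where the backgrounds were 1.28% for cocaine against yoked and 2.92% in yoked against saline. No p-value is given for these splits, since genes are not replicates.

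**Figure D5:**
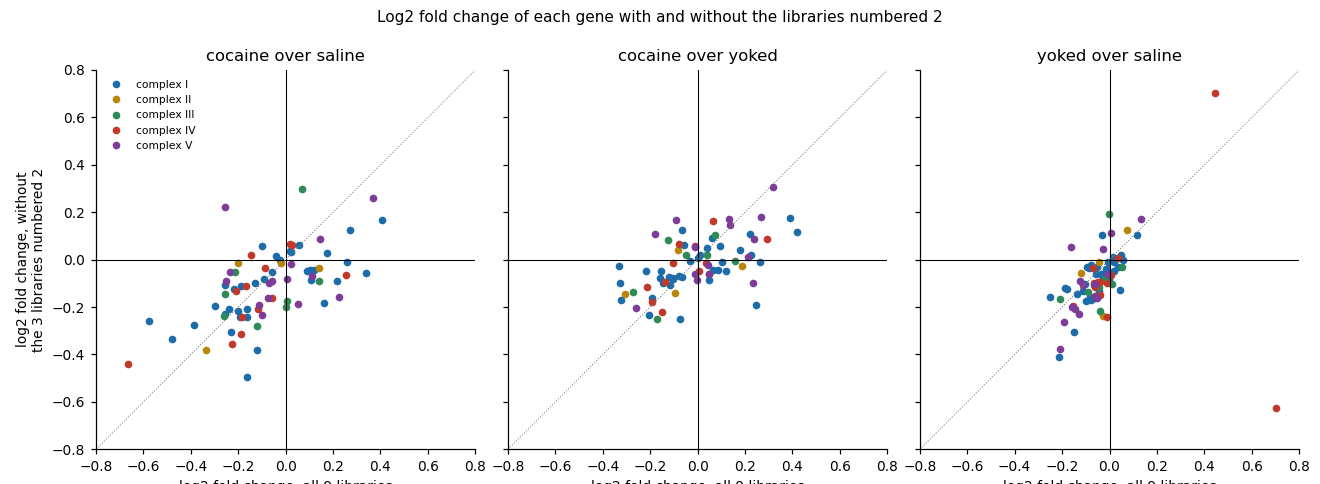
Log2 fold change of each member with all 9 libraries (x axis) and without the libraries numbered 2 (y axis) in the 3 comparisons, coloured by complex, with a dotted line of equality. Axes end at 0.8 to either side, which leaves out Atp5l, Cox4i2, Cox6a2, Cox7a1 and Cox7b2 where they go beyond, and most points of the comparisons with saline lie below 0 on the y axis.

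Group levels with and without the libraries numbered 2 are given for members on which the results above turn. Ndufc2 averaged 116 ± 22.7 CPM in cocaine, 149 ± 22.9 CPM in yoked and 175 ± 37.9 CPM in saline libraries (SD, n = 3 each). Without the libraries numbered 2 these means were 129 CPM in cocaine, 136 CPM in yoked and 154 CPM in saline libraries. Ndufb6 averaged 131 ± 8.79, 171 ± 74.5 and 185 ± 46.9 CPM in the same groups, and 128 CPM in cocaine, 128 CPM in yoked and 160 CPM in saline libraries without the libraries numbered 2. For Uqcrq the means were 267 ± 56.3 CPM in cocaine, 329 ± 29.0 CPM in yoked and 322 ± 48.6 CPM in saline libraries, and 299 CPM in cocaine, 323 CPM in yoked and 350 CPM in saline libraries without those numbered 2. Atp5g3 averaged 467 ± 59.7, 414 ± 29.8 and 457 ± 77.7 CPM in cocaine, yoked and saline libraries, and 434 CPM in cocaine, 423 CPM in yoked and 491 CPM in saline libraries without them. All of these means lay above the input level of the same gene.

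Among the related lists, none of the genes was called in any comparison. Coa7, a complex IV assembly factor, had log2 fold changes of -1.21 in cocaine against saline (edgeR p 0.00666, adjusted p 0.850) and -0.83 in yoked against saline (edgeR p 0.0458, adjusted p 0.999). Without the libraries numbered 2 these were -0.52 and -0.40. Cyc1, the cytochrome c1 of complex III that the naming rule leaves out, had 0.41 in cocaine against yoked, and 0.13 without those libraries. Cycs, cytochrome c, had -0.33 in cocaine against saline and -0.38 in yoked against saline. Cs, citrate synthase, had 0.26 and Tfam, which packages mitochondrial DNA, -0.38 in cocaine against saline, and without those libraries 0.13 and -0.06. Medians of the lists in that comparison were 0.10 for the citric acid cycle, 0.04 for glycolysis, 0.02 for mitochondrial and 0.05 for cytosolic ribosomal proteins, -0.07 for assembly factors, -0.03 for regulators of mitochondrial biogenesis and -0.11 for carriers. In yoked against saline, the regulators had a median of 0.07, and the groups did not overlap for 3 of the 12, all higher, where the backgrounds were 4.3% higher and 2.74% lower. Esrra, a nuclear receptor that regulates respiratory genes, had 0.84 (edgeR p 0.0202, adjusted p 0.999) and Ppargc1b 0.65 (edgeR p 0.0421, adjusted p 0.999) in that comparison. The check genes of the purification did not pass the test either: Chat had 0.20, Slc18a3, the vesicular acetylcholine transporter, -0.29, and Slc5a7, the choline transporter, -0.14 in cocaine against saline.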

How the data were processed

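The authors deposited unnormalised whole counts for each gene symbol in every library. The submitters' processing notes name STAR 2.0.0e, HTSeq and mm10; the annotation, the strand setting and read filters are not given in the sources used here, so reads of overlapping genes cannot be told apart. Coordinates and promoter windows came from RefSeq (GRCm38.p6, the same assembly), in which all 84 members were matched. Members, lists, roles and motifs were chosen with earlier results of these data known, and the NRF1 motif was shortened to its core after a longer palindrome had been searched.

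From the counts, CPM was computed on gene totals. Ratios to input used genes with at least 20 counts in the input or the mean saline library, and a count of 0 was set to 3 counts. Counting intervals are exact at the 95% level, and reads carry no molecular identifiers, so they cover counting error only. Treatments were compared with edgeR 4.0.16 in R 4.3.3 (quasi-likelihood test, robust fit, TMM scaling, expression filter with a minimum count of 10 and total of 15) over 14989 genes of the 9 immunopurified libraries, with 6 residual degrees of freedom and Benjamini-Hochberg adjustment. Alternatives were DESeq2 1.42.0, other scalings and filters, libraries left out and a replicate block. The edgeR and ratio steps were tested on simulated data. The changes planted for edgeR were larger than most seen between treatments here, so the calling of smaller changes was not tested.

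Genes were named by rule: per complex the 2 highest and 2 lowest ratios to input, all isoform family members, called members or else the 4 smallest p in each direction, and from each related list up to 2 highest and lowest ratios and up to 2 smallest p. Genes counted in groups of up to 7, and a few marked ones, were named after their values were seen.

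Same-numbered libraries share a barcode in the labels. The correlation of their deviations from group means was 0.160, 0.196 and 0.149 for yoked against saline. It was 0.095, 0.122 and 0.098 for cocaine against saline and 0.097, 0.125 and 0.161 for cocaine against yoked. Libraries of unlike number had negative mean correlations in each comparison, from -0.136 to -0.025. Deviations within a group cancel out, so the like and unlike values are not independent. Same-numbered libraries were thus more alike in each comparison. The main test did not pair them, and the replicate block did. Of 1 member, counted in the totals, no values of its own are reported here.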

Additional observations from a re-analysis of the deposited data

How the results depend on the processing

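No setting called a member between treatments. With numbers paired in a replicate block, 0 members were called, and unadjusted p-values under 0.05 were found for 6 members in cocaine against saline, 2 in cocaine against yoked and 0 in yoked against saline; medians were -0.09, -0.01 and -0.05. The block changed no call. Without the filter on low counts, edgeR called 60, 27 and 18 of all genes in these comparisons, where the filtered fit called 0. Leaving out single libraries moved the member median of cocaine against saline between -0.12 and -0.042, the highest without cocaine replicate 3. The median log2 ratio to input was 1.48 with TMM scaling and 1.46 with a minimum of 100 counts, and 1.31 to 1.47 with a saline library left out. Members at least 2-fold lower than the input numbered 0 with a minimum of 100 counts, 2 without a filter, 0 when all 9 immunopurified libraries had to pass, and 1 to 3 with a saline library left out. Directions turned for Ndufb10 in cocaine against saline (-0.0087 without replicate 2 in all groups). In yoked against saline, values with a library left out ran from -0.63 to 1.17 for Cox7a1 (-0.63 without replicate 2 in all groups, -0.039 without yoked replicate 2), from -0.00342 to 0.27 for Atp5d and from -0.035 to 0.84 for Cox6a2, both lowest without yoked replicate 3. The causes were not tested. The unreplicated input limits every ratio, and low counts limit the tissue isoforms.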
